A study of Homo sapiens with 12 samples.

Results

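The EGFR and MAPK feedback inhibitors are proteins that dampen growth factor signalling from the cell surface to the kinase ERK. The 10 genes examined, of 60662 in the RNA count files, were ERRFI1, SPRY1, SPRY2, SPRY4, SPRED1, SPRED2, DUSP1, DUSP4, DUSP5 and DUSP6. They were taken as a named list and matched by symbol to the gene identifiers of the files. All 10 were in the RNA counts, and 9 of them, without SPRY4, were among the 12224 genes of the translation table. The genes were chosen by their role and with their RNA, footprint and efficiency changes in this same contrast known. Those changes are therefore given as a description, and a p-value adjusted over all genes places a gene in the whole-table fit without being independent evidence about the list.

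In growth factor signalling, a receptor tyrosine kinase such as EGFR recruits adaptors that load RAS with GTP, and RAS then drives the RAF, MEK and ERK kinases in turn. ERK activity switches on genes whose products act back on the pathway, at the receptor (ERRFI1), at RAS and RAF (the Sprouty and SPRED proteins) or on ERK itself (the DUSP phosphatases). Because many of these transcripts are made in response to growth factors and are short lived, their levels follow pathway activity within hours of a stimulus.

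The cells were HEK293T, a human embryonic kidney line carrying SV40 large T antigen, labelled wild type. Treated cells received STM2457 at 20 µM in 0.2% DMSO for 6 h, and control cells received 0.2% DMSO alone for the same time. STM2457 inhibits METTL3, the catalytic subunit of the enzyme that writes N6-methyladenosine (m6A) on mRNA. Both arms were also given 10% extra fetal bovine serum 1 h before lysis and cycloheximide (100 µg/ml) in the last 3 min, so every library comes from serum-boosted cells. Polyadenylated RNA was sequenced in 4 libraries of each arm, and ribosome-protected fragments of 26 to 34 nt (Ribo-seq) in 2 libraries of each arm. One dose, one time point and one cell line were sampled.

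RNA-seq libraries held 43291730 to 51645739 counts, and the Ribo-seq libraries 3198063 to 4711513 footprint reads over the genes of the translation table. All 8 HEK293T markers tested were expressed, with summed means of 1217 CPM in DMSO and 1262 CPM in STM2457. Markers of carcinoma epithelial lines were nearly absent: of 7 listed, 3 had no count and 1 was high enough to test. The first principal component of the RNA libraries separated the arms with 61.5% of the variance, and the second (12.1%) separated replicates 1 and 2 from replicates 3 and 4 in both arms. ERCC spike-in sequences took 0.389% to 0.408% of counts in DMSO and 0.415% to 0.466% in STM2457. Scaling by these spike-ins in place of the TMM factors moved the median gene's log2 fold change from 0.0025 to -0.19, a drop of 0.20. With spike-in scaling 12.1% of 17807 genes rose and 47.1% fell, and every count under that scaling below is to be read against these shares. The labels do not say that replicates came from separate cultures, so p-values reflect variation among these libraries only, part of which could be technical.

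RNA of the feedback inhibitors was mostly higher with STM2457, by 1.14 to 3.52 fold for the genes that passed the test. Of the 10, 8 rose (ERRFI1, SPRY1, SPRY2, SPRED1, SPRED2, DUSP1, DUSP4 and DUSP5) and none fell (DUSP6 had an unadjusted p of 0.034) by edgeR's quasi-likelihood test with a Benjamini-Hochberg adjusted p under 0.05. In the same fit 26.2% of 17807 genes rose and 21.6% fell, so calls in RNA were common throughout these cells. All 4 treated libraries were above all 4 controls for 7 of the 10 and below them for none, beside 24.9% and 19.8% of all genes. The median log2 fold change was 0.39 over the 10 genes and 0.00 over all genes tested. With spike-in scaling 4 of the 10 rose (ERRFI1, SPRY1, DUSP1 and DUSP4), DUSP6 fell, and the other 5 did not pass, beside 12.1% of all genes higher and 47.1% lower. In replicates 1 and 2 alone 8 of the 10 rose, beside 4333 of all 17924 genes tested. In replicates 3 and 4 alone 7 rose, without SPRED1, beside 3721 of all 17960. The plot of RNA by library shows each value.

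**Figure D1:**
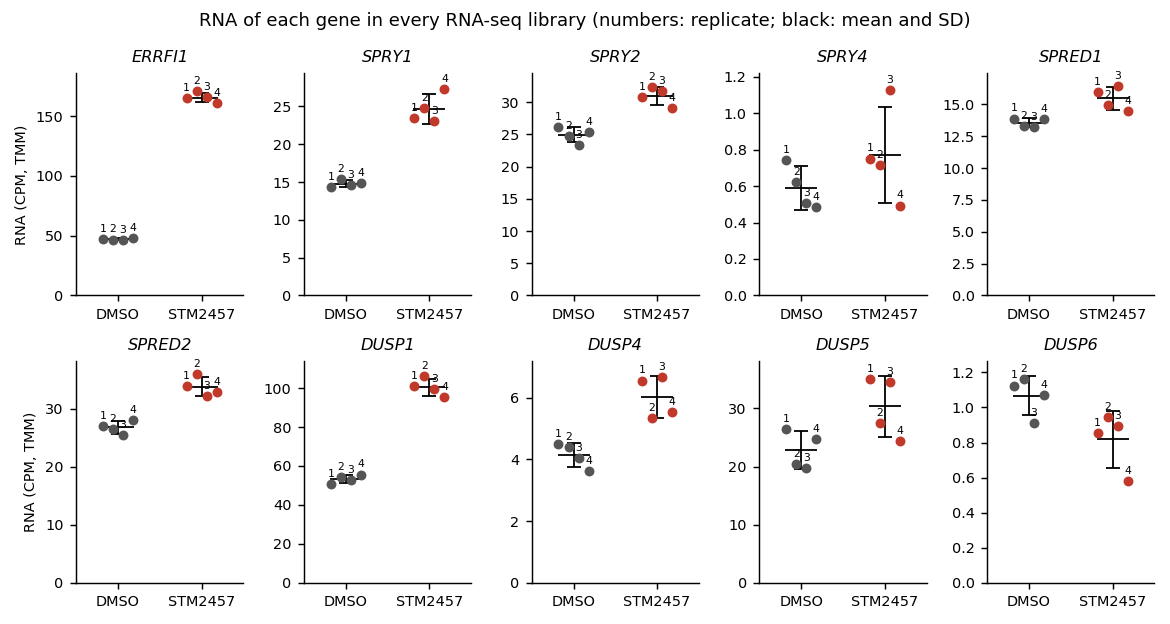
RNA level of each of the 10 genes (y axis, CPM after TMM scaling, from 0) in the DMSO and STM2457 libraries (x axis), 1 point per library labelled with its replicate number, with the mean and SD of 4 in black. ERRFI1 and DUSP1 stand well clear between arms (46.1 to 48.2 against 161 to 171 CPM for ERRFI1), while the arms of SPRY4, DUSP5 and DUSP6 overlap.

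ERRFI1 (ENSG00000116285.13, chromosome 1), also called MIG6 or RALT, binds the kinase domain of EGFR and its relatives and blocks their activation. Its RNA level was 46.8, 46.7, 46.1 and 48.2 CPM (read counts relative to library size) in DMSO replicates 1 to 4, and 165, 171, 166 and 161 CPM in STM2457 replicates 1 to 4. The arms lay far apart and replicates were close within each. Mean RNA rose from 47.0 ± 0.898 to 165 ± 4.05 CPM (SD, n = 4 each), 3.52 fold, a log2 fold change of 1.82 with SE 0.03 (edgeR adjusted p = 9.54e-13). By log2 fold change it stood 30th from the top of the 17807 genes. The change was 1.83 in replicates 1 and 2 alone and 1.79 in replicates 3 and 4 alone, and 1.62 with spike-in scaling.

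Ribosome footprints on ERRFI1 also rose, but by a smaller factor. The normalised footprint signal was 521 and 530 with DMSO and 1215 and 1206 with STM2457, resting on 162, 110, 320 and 309 reads. Both treated libraries were above both controls and replicates nearly coincided. The signal rose 2.30 fold, a log2 change of 1.20 with SE 0.14 (limma adjusted p = 3.53e-09). The 95% confidence interval of that change was 0.91 to 1.49.

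Translational efficiency is the footprint signal divided by the RNA signal of the same gene. For ERRFI1 the ratio of same-numbered libraries was 0.839 and 0.885 in DMSO and 0.593 and 0.577 in STM2457, with both treated ratios lower. Matching by number is for display only, as these libraries were not treated as paired. The log2 change of efficiency was -0.54 with SE 0.13 and a 95% interval of -0.81 to -0.27. Among all 10906 genes tested it did not pass in the fit that weights the assays separately (limma adjusted p = 0.0542). The efficiency change passed without those weights (0.000387) and in an edgeR interaction model on reads (-0.60, adjusted p = 0.000887). The weighted fit was the main one, because a spread shared by the assays gave many false calls on simulated data in an earlier analysis. The authors' deposited table gives ERRFI1 an efficiency of 0.872 in DMSO and 0.586 in STM2457. For all 12224 genes its mean DMSO RNA signal is that of replicates 1 to 3. Its STM2457 efficiency of ERRFI1 likewise uses the RNA signal of replicates 1 to 3. The fits here also used replicate 4 in both arms. The RNA part of the ratio comes from that table, where ERRFI1 changed by 1.74 on the log2 scale.

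The genes whose RNA moved most like ERRFI1 over the 8 libraries were ZNF503, DEPP1, a gene without a symbol (ENSG00000259994), BAMBI and ZNF703. They were the 5 with the smallest Euclidean distance in log2 CPM centred on the DMSO mean, among 11257 genes with at least 5 CPM. ZNF503, a zinc finger transcriptional repressor, was nearest (distance 0.108), with an RNA log2 fold change of 1.84. For the 4 with tested footprints, the log2 footprint change was 1.76 (ZNF503), 1.48 (DEPP1), 1.77 (BAMBI, a decoy receptor of the TGF-β family) and 1.60 (ZNF703). Beside ERRFI1's efficiency change of -0.54, theirs ran from -0.14 for DEPP1 to 0.13 for BAMBI, and none of the 4 passed (limma adjusted p at least 0.939). No test compared ERRFI1 with them.

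ERRFI1 and DUSP1, the feedback genes with the largest RNA changes, are both transcribed at once after a growth factor stimulus, and the 250 bases upstream of each start are shown because this stretch is where general and inducible factors bind. The sequences are RefSeq's, of build GRCh38.p14, each on the minus strand of the genome and written 5′ to 3′ in the direction of the gene. ERRFI1 is at chr1:8026310-8026559 and DUSP1 at chr5:172771196-172771445. Capitals mark matches, on either strand, to a cAMP response element (TGACGTCA) and to the exact string TATAAA, one form of the TATA box.
ERRFI1: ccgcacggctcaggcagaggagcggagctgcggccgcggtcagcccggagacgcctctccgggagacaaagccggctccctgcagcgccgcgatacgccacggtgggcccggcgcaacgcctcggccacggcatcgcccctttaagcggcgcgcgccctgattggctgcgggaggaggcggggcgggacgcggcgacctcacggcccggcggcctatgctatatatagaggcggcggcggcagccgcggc
DUSP1: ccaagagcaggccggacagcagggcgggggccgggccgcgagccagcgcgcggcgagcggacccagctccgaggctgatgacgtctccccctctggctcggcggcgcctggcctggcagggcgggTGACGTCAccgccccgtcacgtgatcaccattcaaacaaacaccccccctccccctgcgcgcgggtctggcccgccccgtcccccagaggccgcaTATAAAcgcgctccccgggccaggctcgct

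The DUSP1 window holds TGACGTCA, its nearest base 118 before the start, and TATAAA, 25 before the start. Searched on both strands with no overlap among the matches, TGACGTCA occurs in 1.65% and TATAAA in 10.7% of the 35116 RefSeq windows of this length. The ERRFI1 window holds no exact match to either string; related A/T-rich strings were not searched. The table matched 8 of the 10 genes in 12 windows, and besides DUSP1 a single SPRED2 window holds TATAAA. None of the 12 holds the AP-1 site TGACTCA (in 4.20% of all windows), the ETS site CCGGAAGT (3.42%) or a CArG box, the serum response element core (1.16%).

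The Sprouty proteins are membrane-associated inhibitors that ERK signalling induces and that act on RAS activation downstream of receptors. SPRY1 (ENSG00000164056.11, chromosome 4) had 14.3, 15.4, 14.6 and 14.8 CPM in DMSO and 23.4, 24.8, 23.1 and 27.3 CPM in STM2457. Every treated library was above every control. SPRY1 RNA rose 1.67 fold, a log2 fold change of 0.74 with SE 0.06 (edgeR adjusted p = 2.86e-07). SPRY1 footprint signal was 180 and 145 in DMSO against 186 and 230 in STM2457, from 30 to 59 reads per library. The arms did not overlap, but the log2 change of 0.36 did not pass (95% interval -0.19 to 0.90, limma adjusted p = 0.429).

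SPRY2 (ENSG00000136158.12, chromosome 13), the most studied Sprouty, which also binds the ubiquitin ligase CBL, showed a smaller RNA change. Its level was 26.1, 24.8, 23.4 and 25.4 CPM in DMSO and 30.8, 32.4, 31.7 and 29.1 CPM in STM2457, again without overlap. SPRY2 rose 1.24 fold (log2 0.31, SE 0.05, edgeR adjusted p = 0.000102), a call that was lost with spike-in scaling (0.12, adjusted p = 0.146). Its footprint signal overlapped between arms, at 232 and 159 in DMSO and 197 and 281 in STM2457, and its log2 change of 0.29 did not pass (limma adjusted p = 0.512). The efficiency change was 0.018 with a 95% interval of -0.47 to 0.51.

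SPRY4 (ENSG00000187678.9, chromosome 5) was barely expressed, with 23 to 48 counts per library. It had 0.743, 0.621, 0.508 and 0.486 CPM in DMSO and 0.751, 0.715, 1.13 and 0.493 CPM in STM2457, and the arms overlapped. Its log2 fold change was 0.37 with SE 0.24 (edgeR adjusted p = 0.229), 0.09 in replicates 1 and 2 and 0.68 in replicates 3 and 4. SPRY4 overlaps the long noncoding RNA gene SPRY4-IT1 in RefSeq, and how the counting assigned reads in the overlap is not given in the sources used here.

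SPRED proteins share a domain with Sprouty and bring the RAS GTPase-activating protein neurofibromin (NF1) to the membrane. For SPRED1 (ENSG00000166068.13, chromosome 15), RNA was 13.9, 13.3, 13.2 and 13.8 CPM in DMSO and 16.0, 15.0, 16.4 and 14.5 CPM in STM2457. The arms were separate by a narrow margin. SPRED1 rose 1.14 fold (log2 0.19, SE 0.05, edgeR adjusted p = 0.00897) with TMM scaling, and its direction flipped with spike-in scaling (-0.0046, adjusted p = 0.965). It did not pass in replicates 3 and 4 alone (0.19, adjusted p = 0.0871) or from the RNA signal of the translation table (0.10, limma adjusted p = 0.285).

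SPRED2 (ENSG00000198369.10, chromosome 2) had 27.1, 26.6, 25.5 and 28.1 CPM in DMSO and 34.0, 36.0, 32.3 and 33.0 CPM in STM2457. All treated libraries were above the controls. SPRED2 RNA rose 1.26 fold (log2 0.33, SE 0.04, edgeR adjusted p = 4.17e-05), a call lost with spike-in scaling (0.14, adjusted p = 0.0655).

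Footprints on both SPRED genes had lower values in the treated libraries, opposite to the RNA with TMM scaling. SPRED1 gave a signal of 70.8 and 67.5 in DMSO and 60.8 and 39.0 in STM2457, from 22, 14, 16 and 10 reads, a log2 change of -0.50 that did not pass (limma adjusted p = 0.541). SPRED2 gave 96.6 and 135 in DMSO and 72.2 and 39.0 in STM2457, from 30, 28, 19 and 10 reads. Neither gene's arms overlapped, and 28.4% of all genes tested were separated downward in this way. The SPRED2 change of -1.09 with SE 0.41 did not pass (limma adjusted p = 0.0632), and it did without STM2457 replicate 1 (-1.52, adjusted p = 0.026).

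SPRED2 had the lowest efficiency change of the 8 genes tested. The footprint-to-RNA ratio of same-numbered libraries, not treated as paired, was 0.482 and 0.690 in DMSO and 0.308 and 0.148 in STM2457. Both treated ratios were lower. Its log2 efficiency change was -1.34 with SE 0.33 and a 95% interval of -2.03 to -0.65. The change did not pass in the weighted fit (limma adjusted p = 0.0630). It passed without weights (0.00991) and in the edgeR interaction (-1.33, adjusted p = 0.0173), both of which called more genes among all tested. With STM2457 footprint replicate 2 left out it was -0.90 (adjusted p = 0.420), and with replicate 1 left out -1.77 (adjusted p = 0.0257). SPRED1 had an efficiency change of -0.59 with an interval of -1.29 to 0.10 (limma adjusted p = 0.628).

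**Figure D2:**
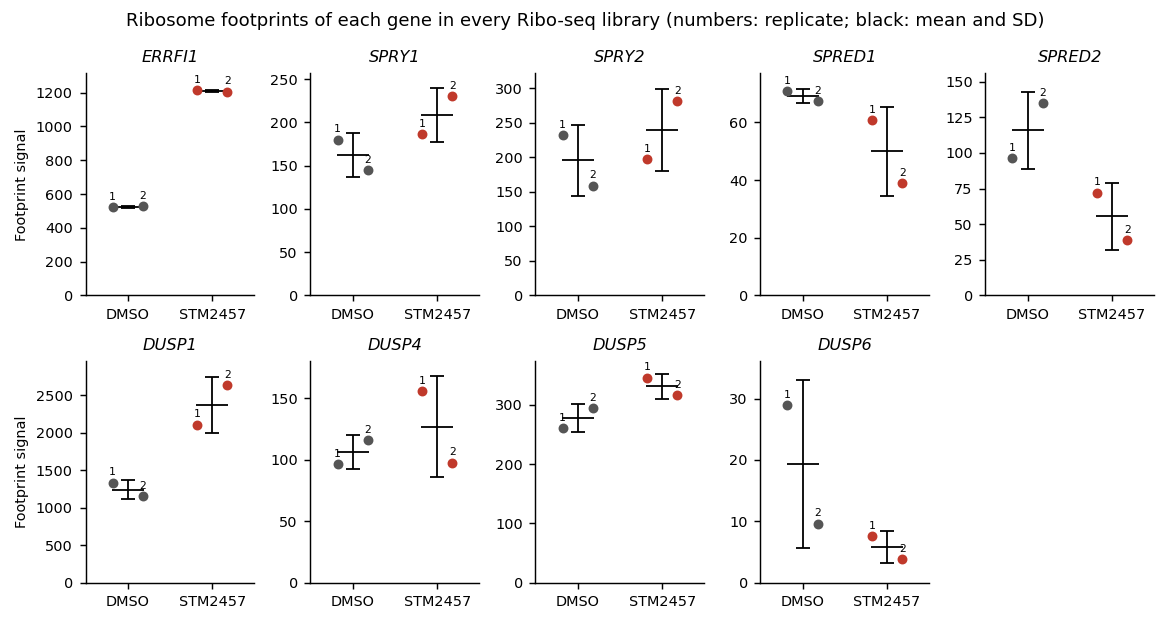
Normalised footprint signal (y axis, from 0) of the 9 genes in the translation table in the DMSO and STM2457 Ribo-seq libraries (x axis), 1 point per library with its replicate number, and the mean and SD of 2 in black. ERRFI1 and DUSP1 are higher in both treated libraries (521 and 530 against 1215 and 1206 for ERRFI1), and SPRED1 and SPRED2 are lower in both.

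The DUSP proteins of this group remove phosphate from both the threonine and the tyrosine of activated MAP kinases. DUSP1 (ENSG00000120129.6, chromosome 5), a nuclear phosphatase of ERK, p38 and JNK and an immediate early gene, had the second largest RNA change. Its RNA was 50.7, 54.2, 52.7 and 55.5 CPM in DMSO and 101, 106, 99.3 and 95.2 CPM in STM2457. The lowest treated library was well above the highest control. Mean RNA rose from 53.3 ± 2.07 to 100.3 ± 4.44 CPM (SD, n = 4 each), 1.88 fold, a log2 fold change of 0.91 with SE 0.04 (edgeR adjusted p = 1.09e-09). It was 0.97 in replicates 1 and 2, 0.85 in replicates 3 and 4 and 0.72 with spike-in scaling.

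DUSP1 footprints rose by nearly the same factor as its RNA. The signal was 1336 and 1152 in DMSO and 2112 and 2635 in STM2457, from 239 to 675 reads per library. The arms were clearly separate. The log2 footprint change was 0.93 with SE 0.12 (1.91 fold, limma adjusted p = 2.06e-08). The efficiency change was 0.10, with a 95% interval of -0.22 to 0.42.

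DUSP4 (ENSG00000120875.9, chromosome 8), a nuclear ERK and JNK phosphatase, was expressed at a low level. It had 4.50, 4.39, 4.04 and 3.63 CPM in DMSO and 6.56, 5.34, 6.67 and 5.53 CPM in STM2457, without overlap. DUSP4 RNA rose 1.46 fold (log2 0.54, SE 0.10, edgeR adjusted p = 0.000464), a call that was lost with the RNA signal of the translation table (0.34, limma adjusted p = 0.0838). Footprints on DUSP4 overlapped between arms, at 96.6 and 116 in DMSO and 156 and 97.6 in STM2457 (log2 0.22, limma adjusted p = 0.741), and without STM2457 replicate 1 the direction flipped to -0.11. The authors' deposited table gives DUSP4 an efficiency of 2.97 in DMSO, at the 98.2 percentile of its genes, and 2.88 in STM2457. The DMSO value rests on 30 and 24 footprint reads and the STM2457 value on 41 and 25. Both leave out RNA-seq replicate 4. The table's RNA signal for DUSP4 was 23.7 in DMSO replicate 4 and 32.1 to 38.2 in DMSO replicates 1 to 3. With STM2457 it was 33.3 in replicate 4 and 38.7 to 46.6 in replicates 1 to 3.

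DUSP5 (ENSG00000138166.6, chromosome 10) is a nuclear phosphatase selective for ERK. It had 26.4, 20.4, 19.7 and 24.7 CPM in DMSO and 35.0, 27.4, 34.6 and 24.4 CPM in STM2457. STM2457 replicate 4 lay below DMSO replicates 1 and 4, so the arms overlapped. The log2 fold change was 0.41 with SE 0.12 (edgeR adjusted p = 0.0135), the same within each pair of replicates (0.40 and 0.40), and it did not pass with spike-in scaling (0.22, adjusted p = 0.0834). Its footprint signal was 261 and 294 in DMSO and 346 and 316 in STM2457, a log2 change of 0.26 that did not pass (limma adjusted p = 0.487).

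DUSP6 (ENSG00000139318.8, chromosome 12), the cytoplasmic ERK phosphatase that is widely used as a readout of ERK activity, was the gene with a negative RNA value. Its RNA was 1.12, 1.16, 0.910 and 1.07 CPM in DMSO and 0.853, 0.946, 0.893 and 0.579 CPM in STM2457, from 27 to 59 counts per library. DMSO replicate 3 fell within the treated range. The log2 fold change was -0.39 with SE 0.16 (edgeR adjusted p = 0.0674). It passed without DMSO replicate 3 (-0.46, adjusted p = 0.0486) and with spike-in scaling (-0.58, adjusted p = 0.00645).

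Footprints on DUSP6 numbered 9 and 2 reads in DMSO and 2 and 1 in STM2457, a mean of 3.5 per library, under the minimum of 10 for testing. A difference in its translation was not detectable at this depth. DUSP6 shares its locus in RefSeq with the readthrough gene POC1B-DUSP6, and the assignment of shared reads is not known from the sources used here.

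The 3 transcripts named after these genes in the count files had few or no reads. Neighbouring or overlapping transcripts with other names were not examined. The divergent transcript ERRFI1-DT had 0 to 4 counts per library and DUSP5-DT 0 to 1, and SPRY4-AS1 had none in any library. All 3 were below the filter on low counts.

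Side by side, RNA and footprints gave different counts for the feedback inhibitors. Of the 8 with enough footprint reads, ERRFI1 and DUSP1 rose in footprints and none fell (SPRED2 had an unadjusted p of 0.0106), where 9.59% of 10906 genes rose and 6.13% fell. Both treated libraries were above both controls for ERRFI1, SPRY1, DUSP1 and DUSP5, and below both for SPRED1 and SPRED2. Among all genes tested, 25.7% were separated upward and 28.4% downward in this way. The median log2 footprint change was 0.27 over the 8 genes and -0.02 over all genes. No efficiency change of the 8 passed the weighted limma fit, where 1.04% of genes did (0.229% higher, 0.807% lower). ERRFI1 and SPRED2 had an unadjusted p under 0.05 there (0.000642 and 0.000843), and both were called by limma without weights and by the edgeR interaction. Those fits called more genes of the 10906, 825 (486 lower) without weights and 522 (428 lower) by edgeR, against 113 in the weighted fit.

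**Figure D3:**
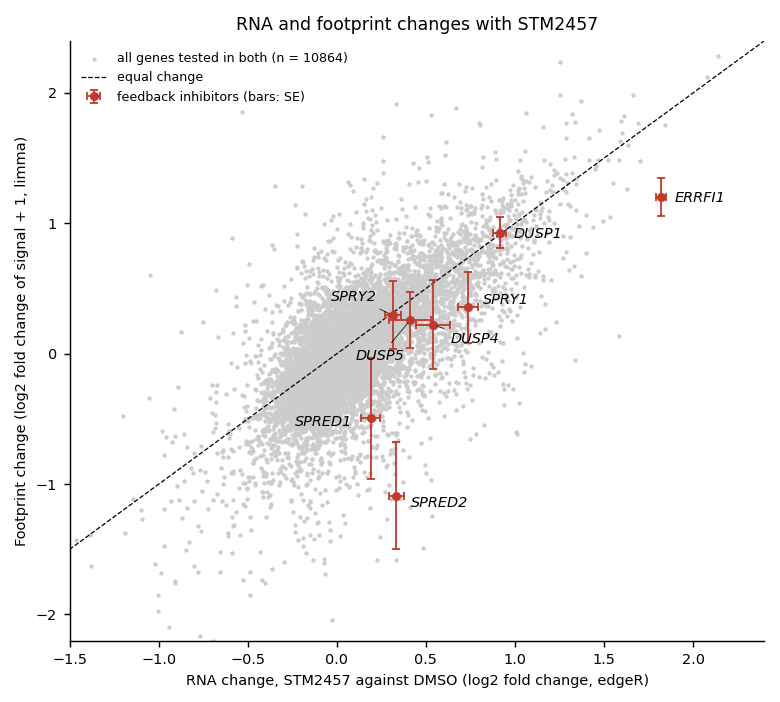
Log2 fold change of RNA (x axis, edgeR) against log2 change of footprint signal (y axis, limma) with STM2457, for 10864 genes tested in both (grey; 20 lie outside the axes) and 8 feedback inhibitors (red, bars show SE), with a dashed line of equal change. DUSP1 lies on the line (0.91 and 0.93), while ERRFI1 (1.82 and 1.20) and SPRED2 (0.33 and -1.09) lie below it.

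**Figure D4:**
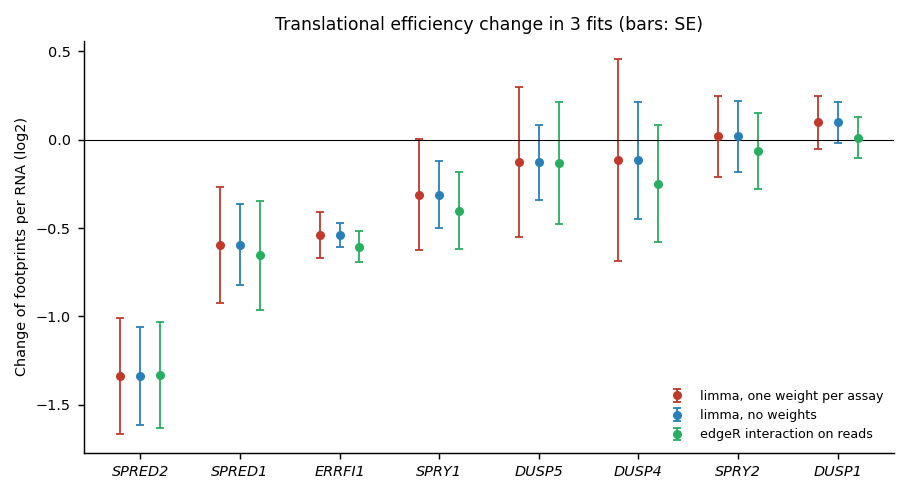
Log2 change of translational efficiency with STM2457 (y axis) for the 8 feedback inhibitors tested (x axis), estimated by limma with a weight per assay, limma without weights and an edgeR interaction, with SE bars. SPRED2 (-1.34 in the weighted fit) and ERRFI1 (-0.54) have estimates well below 0 in all 3, and the SE bars of DUSP4 and DUSP5 cross 0 in each.

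The other genes of the pathway were described from lists by role, as the plot of pathway lists shows. With TMM scaling 26.2% of 17807 genes rose and 21.6% fell in RNA, and 9.59% of 10906 rose and 6.13% fell in footprints. Each list count below is to be read against these shares. Other brakes on receptors and RAS rose in 7 and fell in 1 of 15 tested genes, with a median log2 RNA change of 0.065. With spike-in scaling 3 rose and 6 fell, the median turned to -0.13, and LRIG2 (0.14 to -0.053) and PEBP1 (0.14 to -0.055) changed sign. LRIG3, a transmembrane protein of the LRIG family, rose from 32.2 to 54.9 CPM (0.77), SOCS5, a suppressor of cytokine and EGFR signalling, from 20.3 to 33.4 CPM (0.72), and LRIG1, which promotes degradation of EGFR, from 56.7 to 69.8 CPM (0.30; 0.10 with spike-in scaling, where it did not pass). Footprints rose for the same 3 genes, by 1.08, 0.92 and 0.45 on the log2 scale. The efficiency of LRIG2 rose by 0.89 in the weighted fit (limma adjusted p = 0.0176), a gene singled out after its value was seen. The edgeR interaction called 0 of the 14 genes of this list that it tested. LRIG2 footprints changed by 0.53 (limma adjusted p = 0.0301), and the RNA in its efficiency comes from the translation table, not from the counts.

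Other MAP kinase phosphatases rose in 6 and fell in 2 of 11 tested genes (median 0.41), and with spike-in scaling in 5 and 4. PPM1D, a phosphatase of the p53 and p38 pathways, rose from 44.7 to 82.6 CPM (log2 0.89, SE 0.03), DUSP14 from 41.5 to 74.2 CPM (0.84) and DUSP16, which acts on JNK and p38, from 45.8 to 78.8 CPM (0.78). Footprints rose for PPM1D (0.78) and DUSP14 (1.02), and DUSP16 had a footprint change of 0.54 that did not pass (limma adjusted p = 0.0574).

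Transcripts known to respond to ERK, leaving out the 10 genes themselves, rose in 10 and fell in 3 of 17 (median 0.35), and with spike-in scaling in 7 and 4, MCL1 turning from 0.097 to -0.099. MYC, the growth-promoting transcription factor, rose from 128 to 308 CPM (log2 1.27, SE 0.03), TRIB1, a pseudokinase from 36.6 to 78.7 CPM and the receptor EPHA2 from 23.0 to 44.6 CPM (0.95). The immediate early genes FOS (1.29) and EGR1 (0.96) rose, while the ETS factors ETV1 (-0.42) and ETV5 (-0.47) fell. ETV1 and ETV5 were expressed at a low level, with mean counts of 103 and 52.4 per library. ETV4, the other ETV gene of the list, had a mean count of 28.6. Its change of -0.22 did not pass (edgeR adjusted p = 0.439). FOS, EGR1, ETV1, ETV4 and ETV5 were picked after their values were seen. In footprints 6 rose and 2 fell of 12 tested, with a median of 0.66, and MYC changed by 1.26.

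Receptors and core kinases changed in both directions, as did all genes tested (26.2% higher and 21.6% lower with TMM scaling). ErbB receptors and ligands rose in 3 and fell in 2 of 9 tested genes, and in 1 and 2 with spike-in scaling. EGFR itself went from 16.4 to 20.8 CPM (log2 0.35, edgeR adjusted p = 0.000785), and did not pass with spike-in scaling (0.15, adjusted p = 0.0980). ERBB2 fell from 63.1 to 52.9 CPM (-0.25) and also in footprints (-0.70, limma adjusted p = 0.00390). The ligand gene TGFA fell (-1.02) and the ligand gene NRG2 rose (0.68). TGFA was expressed at a low level, with a mean count of 47.9 per library, and its footprints were not tested. Other receptor tyrosine kinases rose in 3 (INSR 0.65, IGF1R 0.59, FGFR2 0.38) and fell in none of 11 (none of the lower values had an unadjusted p under 0.05 in edgeR, and DESeq2 called none lower), and rose in 3 and fell in 3 with spike-in scaling.

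Adaptors and RAS activators rose in 6 and fell in 1 of 12, and in 3 and 3 with spike-in scaling. The adaptor CRK (0.55) and the RAS exchange factor SOS1 (0.52) rose under both scalings, and CRKL (0.29) with TMM alone. Of the RAS, RAF, MEK and ERK genes 1 rose and 3 fell of 11, and 1 and 10 with spike-in scaling, where 47.1% of all genes fell. MAP2K1, which encodes the kinase MEK1, fell by 0.11, while MAPK3, which encodes ERK1, had -0.011 and fell by 0.21 only with spike-in scaling (edgeR adjusted p = 0.00217).

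Downstream of ERK, effector kinases and transcription factors rose in 4 and fell in 3 of 15, and in 2 and 7 with spike-in scaling, where ELK1 turned from 0.11 to -0.087. ELK4, a ternary complex factor that binds with SRF, rose in RNA from 81.1 to 104 CPM (log2 0.35) and fell in footprints (-1.12, limma adjusted p = 0.0106) and in efficiency (-1.28, adjusted p = 0.0286). ETS2 (0.32) and ERF (0.35), an ETS-family repressor that ERK controls, rose in RNA, ETS2 with TMM scaling alone. Of the JNK and p38 kinases and the MAP2K kinases that activate them, 3 rose and 4 fell of 11. The 3 were the activators MAP2K7 (0.28), MAP2K6 (0.25) and MAP2K4 (0.18). The 4 were the JNK genes MAPK8 (-0.20), MAPK9 (-0.10) and MAPK10 (-0.30) and the p38 gene MAPK12 (-0.40). With spike-in scaling none rose and 7 fell (12.1% and 47.1% of all genes), and MAP2K4 turned to -0.014.

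**Figure D5:**
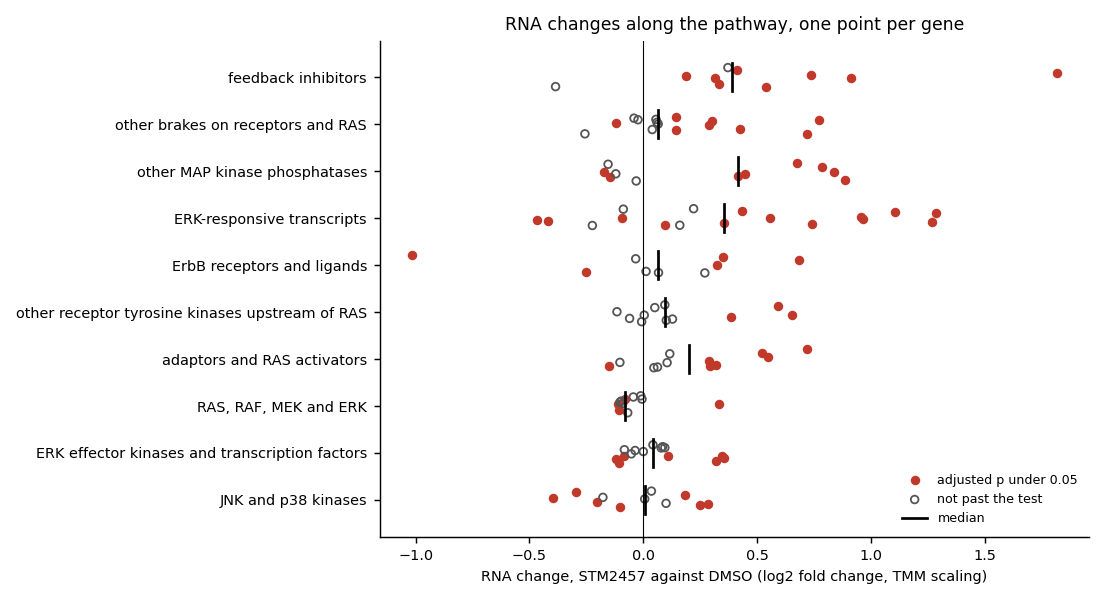
Log2 fold change of RNA with STM2457 under TMM scaling (x axis) for each tested gene of 10 role lists (y axis), filled red where the edgeR adjusted p was under 0.05 and open where not, with the list's median as a black bar. Medians were 0.39 for the feedback inhibitors, 0.41 for other MAP kinase phosphatases, 0.35 for ERK-responsive transcripts and -0.08 for RAS, RAF, MEK and ERK. Spike-in scaling lowers the median gene by 0.20.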

How the data were processed

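Raw counts per gene were deposited for the 8 RNA-seq libraries, with ERCC spike-in rows. A deposited series table gives normalised signal per gene for RNA-seq and Ribo-seq, the authors' efficiency as a ratio per arm, and its log2 fold change. Its normalisation is not described in the sources used here. Per the submitters' processing notes, the tools include STAR 2.7.3a, UMI-tools 1.1.2, Subread 2.0.3 with featureCounts, and DESeq2, with genome build GRCh38.p12. Libraries for RNA-seq were strand-specific, per the labels' protocols, and the strand setting of the counting is not given.

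RNA counts were tested with edgeR 4.0.16 (quasi-likelihood, TMM, filterByExpr) in R 4.3.3, with the ERCC rows left out. Footprints were tested with limma 3.58.1 on log2(signal + 1), so fold changes of low genes are understated, among genes with a mean of at least 10 reads. Reads were recovered from the signal steps, where 100% of footprint values were within 0.1 of a whole read. The table's RNA signal comes from fewer reads than the deposited counts (median 62.3% per gene, and 29.7% for SPRED2 to 56.9% for SPRY2 among the listed genes), so efficiency rests on another RNA value than the count test. Efficiency was the interaction of assay and treatment in limma on the table, with 1 weight per assay (arrayWeights), and intervals are limma's at 95%. Benjamini-Hochberg adjustment ran over all genes tested, at 0.05. Genes were not compared by level because lengths were not used here.

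Alternatives were DESeq2 1.42.0, RLE factors, ERCC scaling, no low-value filter, pseudocounts of 0.5 and 10, a replicate block, subsets of libraries, fits without weights and edgeR on recovered reads. Testing RNA from the table's signal was added after seeing the data. The procedures were tested on simulated data. The 10 genes and all lists were chosen with earlier results of these data known. Named from each other list were EGFR, ERBB2, MAPK3 and the 3 genes with the smallest RNA p-value, besides the exceptions stated; some genes the rule names are not reported here. Of 7 fibroblast markers 4 were tested and of 7 blood cell markers 3, and none rose or fell with TMM scaling (at an unadjusted p under 0.05, 1 fibroblast marker, LUM). Promoter windows used the 250 bases before the start, without the 50 after it.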

Additional observations from a re-analysis of the deposited data

How the results depend on the processing

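With ERCC spike-in scaling, 4 of the 10 genes rose in RNA and 1 fell (2159 and 8383 of all 17807 genes), SPRED1 reversed to -0.0046, and the median ratio of treated to control mean CPM over the 10 genes moved from 1.32 to 1.16. Leaving out 1 RNA-seq library, the genes that fell numbered 0 to 1 (1 without DMSO replicate 3, DUSP6). Of 159 alternative RNA values of single genes 150 kept direction and call, as did 70 of 72 for footprints and 133 of 152 for efficiency. Leaving out 1 Ribo-seq library gave 1004 to 1464 footprint calls over all genes against 1715, fewest without DMSO replicate 2, and 0 to 1 lower calls among the feedback inhibitors (SPRED2, without STM2457 replicate 1), where DUSP4 reversed to -0.11 (-0.11 to 0.55 over the 4 footprint libraries left out). Efficiency calls numbered 113 in the weighted fit, 825 without weights (339 higher, 486 lower) and 522 in the edgeR interaction (94 and 428), and 37 to 129 with 1 library left out (49 without DMSO footprint replicate 1, 37 without replicate 2, 45 without STM2457 replicate 2). Lower efficiency calls among the feedback inhibitors numbered 2 without weights, 2 by edgeR (ERRFI1 and SPRED2 in both), 1 with RNA-seq replicates 1 and 2 only (ERRFI1, adjusted p = 0.0421) and 0 to 1 with 1 library left out (ERRFI1 without RNA DMSO replicate 4, adjusted p = 0.0409, and SPRED2 without RNA STM2457 replicate 3, 0.0331, or footprint STM2457 replicate 1, 0.0257). Efficiency directions near 0 reversed for SPRY2 (-0.064 by edgeR, and -0.25 to 0.29 with 1 library left out), DUSP1 (-0.062 to 0.26 with 1 library left out) and DUSP4 (0.044 with RNA-seq replicates 1 and 2 only, and -0.45 to 0.22 with 1 library left out). The cause was not tested.

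The replicate number as a block gave 9658 RNA calls, 1719 footprint calls and 131 efficiency calls, and changed no call of the 10 genes. Same-numbered RNA libraries correlated at 0.08 to 0.23 in their deviations from the arm means, and not every library correlated best with its own number; for Ribo-seq the value was 0.01. They were therefore not treated as paired. Footprint depth limits the SPRED genes (10 to 30 reads per library) and DUSP6 (1 to 9).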
